A study of Homo sapiens with 16 samples.

Results

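YAP1 and its paralogue WWTR1, which encodes TAZ, were followed together with their DNA-binding partners TEAD1, TEAD2, TEAD3 and TEAD4 and with the Vestigial-like cofactors VGLL1, VGLL3 and VGLL4. These 9 genes were selected by symbol from the 26229 genes of the count table, with earlier results of these data known. Each of the 9 symbols occurred once, and all 9 passed the filter on low counts. VGLL2, with at most 9 counts in any library, was not among them. The cells were A431, a line derived from an epidermoid carcinoma of the skin, and HaCaT, keratinocytes that became immortal in culture. Each line contributed 1 library with a control siRNA (siCTRL), 3 with siRNA against YAP1 (siYAP), 1 with an empty expression vector and 3 with a vector for mutant YAP (YAP5SA), 16 libraries in all. The siRNAs were given in 2 transfections 24 h apart and RNA was taken 48 h after the second, whereas the vector cells received no siRNA. YAP5SA carries alanines in place of serines that the LATS kinases phosphorylate. The labels give neither the promoter of the vector nor the clonality of the vector cells, and although the methods call the replicates biological, separate cultures are not described, so p values measure only the spread between these libraries.

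YAP and TAZ are the nuclear effectors of the Hippo pathway. When the kinase cascade of MST and LATS is active they are phosphorylated and held in the cytoplasm or degraded. When it is not, they enter the nucleus and drive transcription through TEAD proteins, which carry the DNA-binding domain that YAP and TAZ lack. Vestigial-like proteins bind the same face of TEAD, VGLL4 competing with YAP, while VGLL1 and VGLL3 can themselves act as TEAD cofactors. In the epidermis YAP is known for its activity in the basal layer.

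Libraries held 18115624 to 46791673 read pairs assigned to genes. The lowest count of a library was 101 for YAP1 and 64 for TEAD2, the least expressed of the 9 by count, so none lay near the 3 counts that a count of 0 allows. Levels are given as CPM, counts relative to the total of assigned pairs, after TMM scaling, which adjusts those totals for composition. Changes are log2 fold changes from edgeR's quasi-likelihood test, fitted to 14673 genes in 1 model of the 8 groups, and a gene was called at a Benjamini-Hochberg FDR under 0.05 and a logCPM above 1. Each control was a single library, and its spread was taken to equal that of the treated triplicates. The share of all genes without overlap between treated and control libraries, or between the siRNA and vector libraries, was not computed. EGFR, which is amplified in A431 cells, lay between 750 and 1358 CPM in A431 libraries and between 298 and 557 CPM in HaCaT libraries. The 7 epithelial markers, among them KRT5 and KRT14, summed to between 2340 and 5907 CPM in every group. Of 3 leukocyte markers CD3E and PTPRC reached at most 0.25 CPM in any library, whereas CD68, a lysosomal protein, lay between 82.1 and 169.8 CPM in A431 and between 8.16 and 32.5 CPM in HaCaT cells. The summed level of 6 fibroblast markers lay between 2.45 and 14.8 CPM in A431 and between 0.66 and 27.9 CPM in HaCaT cells, COL1A2 reaching at most 0.026 CPM and LUM, DCN and COL1A1 up to 12.7, 14.2 and 5.69 CPM.

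**Figure D1:**
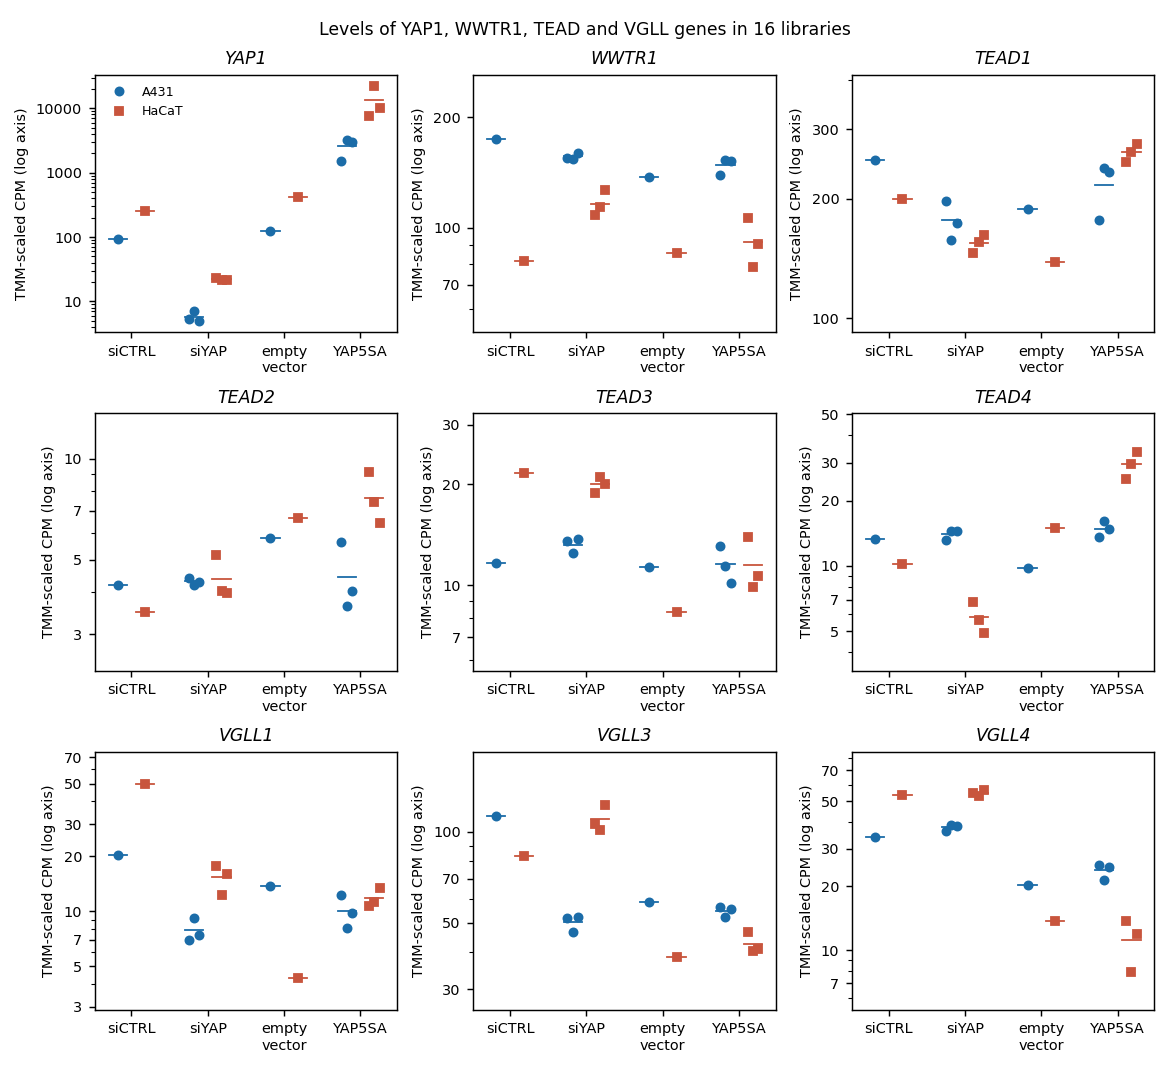
TMM-scaled CPM (log axis, scaled separately in each panel) of the 9 genes in each of 16 libraries, by treatment. Circles are A431 and squares HaCaT libraries, and short lines are group means. YAP1 spans 5.04 to 22255 CPM, and the siCTRL and empty vector libraries of HaCaT stand far apart for VGLL1 (49.6 and 4.33 CPM) and VGLL4 (53.5 and 13.8 CPM).

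YAP1, the gene targeted by the siRNA and carried by the vector, fell with siYAP and rose with YAP5SA. In A431 cells the siYAP libraries held 5.66%, 7.42% and 5.35% of the siCTRL level, and in HaCaT cells 9.12%, 8.49% and 8.58%. The YAP5SA libraries reached 12.03, 26.1 and 23.6 times the empty vector level in A431 cells and 17.8, 52.6 and 23.8 times that level in HaCaT cells. No treated library of either line overlapped the controls. In 1 HaCaT YAP5SA library YAP1 took 2.1% of all assigned pairs, the highest share of any gene, and in the others of that group it ranked 2. Mutant and endogenous transcripts are counted together. The siYAP changes of -4.02 (SE 0.46) in A431 and -3.52 (SE 0.45) in HaCaT cells were called (edgeR FDR = 0.000761 and 0.000894), as was the YAP5SA change of 4.97 (SE 0.67) in HaCaT cells (edgeR FDR = 0.00208). In A431 cells the YAP5SA change of 4.36 (SE 0.65) was not called (edgeR FDR = 0.197). It was called once YAP5SA replicate 1, the lowest of the triplicate, was left out (4.64, edgeR FDR = 0.00852), and with the replicate number as a block (4.31, edgeR FDR = 0.0296).

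With siYAP in A431 cells, 3 of the 9 genes were called, all lower (YAP1, VGLL1 and VGLL3), beside 3.78% of all genes tested that were called lower. In HaCaT cells 3 were called lower (YAP1, VGLL1 and TEAD4), beside 3.30% of all genes. Over both lines 4 were called lower (YAP1, VGLL1, VGLL3 and TEAD1), beside 7.68% of all genes. With YAP5SA, 4 genes were called higher in HaCaT cells (YAP1, TEAD1, TEAD4 and VGLL1), where 6.99% of all genes were called higher. Over both lines 3 were called higher (YAP1, TEAD1 and TEAD4), beside 1.38% of all genes. In A431 cells edgeR called 0 of the 9 with YAP5SA and 0.00% of all genes, while 2 of the 9 and 828 of 14673 genes had an unadjusted p under 0.05. DESeq2 called 1 of the 9 there, YAP1, beside 0.0204% of all genes. These comparisons share libraries, and over both lines the same libraries enter as in each line.

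**Figure D2:**
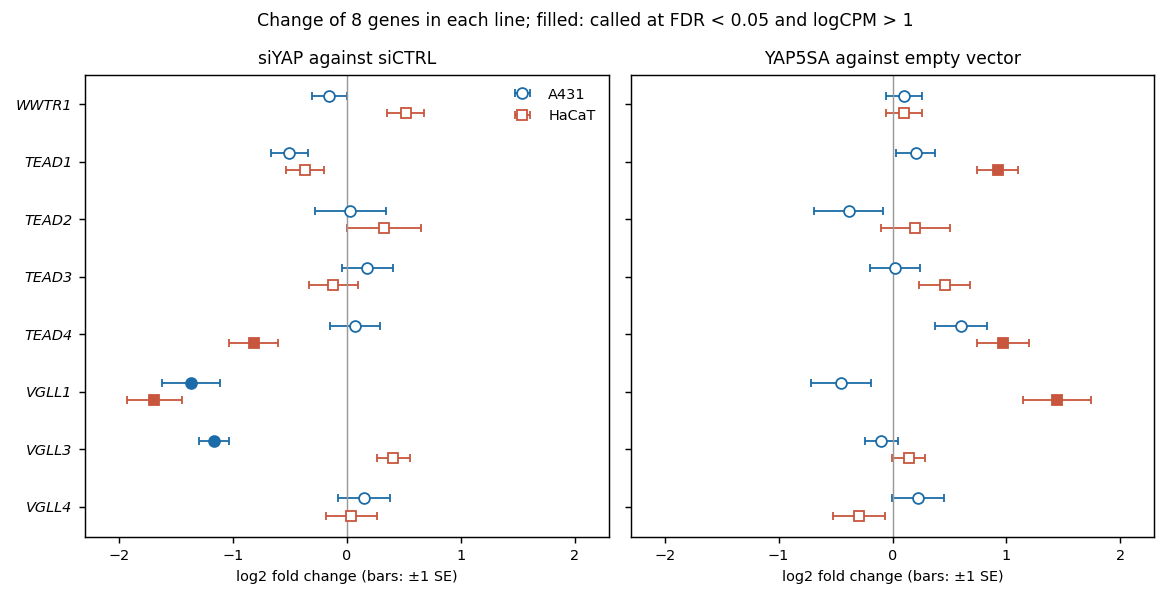
Log2 fold changes with 1 standard error (bars) of the 8 genes other than YAP1, for siYAP against siCTRL (left) and YAP5SA against empty vector (right). Circles are A431 and squares HaCaT cells, and filled symbols were called by edgeR. VGLL1 was lower with siYAP in both lines (-1.37 and -1.69), and VGLL3 was lower in A431 cells (-1.17) but not in HaCaT cells (0.41), a difference of -1.58 that was called (edgeR FDR = 0.0157).

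WWTR1, whose product TAZ acts alongside YAP, was not called by edgeR in any comparison of a treated group with its own control. Its HaCaT level was 81.3 CPM in the siCTRL library and 108, 114 and 127 CPM in the siYAP libraries. Its level was 85.3 CPM with the empty vector and 106, 78.2 and 90.3 CPM with YAP5SA. All 3 siYAP libraries lay above both controls, whereas YAP5SA libraries lay on either side of them. In A431 cells the siYAP libraries also lay above both controls for TEAD3 and VGLL4, which were not called either. The share of all genes with this pattern was not computed. For WWTR1 in HaCaT cells the siYAP change of 0.52 (SE 0.16) missed the threshold (edgeR FDR = 0.0809). It passed with DESeq2 (0.51, FDR = 0.0257) and with siCTRL and empty vector pooled as 2 controls (0.48, edgeR FDR = 0.0352), where 5.02% of all genes were called higher. In A431 cells WWTR1 stood at 174 CPM with siCTRL, 154 to 160 CPM with siYAP, 138 CPM with the empty vector and 139 to 153 CPM with YAP5SA, and treated libraries fell between the controls. The effect of siYAP differed between the lines by -0.67 (SE 0.22, A431 minus HaCaT), which was not called (edgeR FDR = 0.257).

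TEAD1, the most abundant TEAD transcript in both lines, changed in the direction of YAP1 over both lines, by less than 1 on the log2 scale. In HaCaT cells it had 138 CPM with the empty vector and 248, 264 and 275 CPM with YAP5SA. Every YAP5SA library lay above both HaCaT controls, the siCTRL library being at 200 CPM. The change of 0.92 (SE 0.18) was called (edgeR FDR = 0.00908). With siYAP the HaCaT libraries had 146, 155 and 162 CPM, below siCTRL and above the empty vector, and the change of -0.37 (SE 0.17) was not called (edgeR FDR = 0.234).

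In A431 cells TEAD1 stood at 250.2 CPM in the siCTRL library and at 197, 158 and 174 CPM in the siYAP libraries, then at 188 CPM with the empty vector and 177, 239 and 234 CPM with YAP5SA. The siYAP libraries lay below siCTRL but on either side of the empty vector. Neither change was called there (-0.50, SE 0.17, edgeR FDR = 0.096, and 0.20, SE 0.17, edgeR FDR = 0.852). Over both lines TEAD1 was called lower with siYAP (-0.44, SE 0.12, edgeR FDR = 0.029) and higher with YAP5SA (0.56, SE 0.12, edgeR FDR = 0.0411). Both calls were narrow. With siCTRL and empty vector pooled as 2 controls both were lost (-0.22, edgeR FDR = 0.239, and 0.31, edgeR FDR = 0.157). The siYAP call was lost without A431 siYAP replicate 2 (edgeR FDR = 0.0547) or replicate 3 (0.0585) or HaCaT siYAP replicate 1 (0.0609), and the YAP5SA call without A431 YAP5SA replicate 2 (0.0833) or replicate 3 (0.0871) or HaCaT YAP5SA replicate 3 (0.0743).

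TEAD4 gave the widest range of the TEAD genes, in HaCaT cells. Its siCTRL level there was 10.2 CPM, and the siYAP libraries held 6.82, 5.64 and 4.92 CPM. With the empty vector it had 15.03 CPM and with YAP5SA 25.2, 29.6 and 33.7 CPM. The siYAP libraries lay below both controls and the YAP5SA libraries above both, with no overlap. How many of all genes did the same was not computed. The changes of -0.82 (SE 0.22, edgeR FDR = 0.0449) and 0.97 (SE 0.22, edgeR FDR = 0.0163) were called. Without HaCaT siYAP replicate 2 or 3 the first was no longer past the threshold (edgeR FDR = 0.0889 and 0.117), nor with no filter (0.0616), with the line fitted alone (0.123) or with a replicate block (0.0613). The second was lost with the line fitted alone (0.98, edgeR FDR = 0.0587).

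In A431 cells the siCTRL library held 13.3 CPM of TEAD4 and the siYAP libraries 13.2, 14.4 and 14.5 CPM, which overlapped. It had 9.78 CPM with the empty vector and 13.6, 16.1 and 14.8 CPM with YAP5SA, a difference of 0.60 (SE 0.23) that was not called (edgeR FDR = 0.803). The difference between lines of the siYAP effect on TEAD4 was 0.89 (SE 0.31, edgeR FDR = 0.293), so the lines were not shown to differ. The call over both lines with YAP5SA (0.79, SE 0.16, edgeR FDR = 0.0323) was lost without A431 YAP5SA replicate 2 (0.0712) or replicate 3 (0.0681) or HaCaT YAP5SA replicate 3 (0.0551).

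TEAD2 and TEAD3 were called in neither arm against its own control. TEAD2 ranged from 3.64 to 5.79 CPM in A431 and from 3.50 to 9.10 CPM in HaCaT cells. TEAD3 ranged from 10.1 to 13.7 CPM in A431 cells. In HaCaT cells the siCTRL library held 21.6 CPM of TEAD3 and the siYAP libraries 18.8 to 21.04 CPM, against 8.34 CPM with the empty vector and 13.9, 9.85 and 10.7 CPM with YAP5SA. The siRNA libraries and the vector libraries of HaCaT cells thus formed separate ranges for TEAD3, whichever the YAP1 level.

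VGLL1, a cofactor that binds TEAD through a Vestigial domain, was the member that fell most with siYAP after YAP1 itself. The A431 siCTRL library held 20.3 CPM and the siYAP libraries 6.998, 9.17 and 7.39 CPM. The HaCaT siCTRL library held 49.6 CPM and the siYAP libraries 17.8, 12.2 and 16.03 CPM. No siYAP library overlapped its siCTRL library, and the siYAP libraries held between 24.7% and 45.2% of the siCTRL level. The changes of -1.37 (SE 0.25, edgeR FDR = 0.00928) and -1.69 (SE 0.24, edgeR FDR = 0.0016) were called and did not detectably differ between the lines (0.32, SE 0.37, edgeR FDR = 0.805).

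With the vectors the VGLL1 values differed in sign between the lines. The A431 empty vector library held 13.8 CPM and the YAP5SA libraries 12.2, 8.13 and 9.82 CPM. The HaCaT empty vector library held 4.33 CPM and the YAP5SA libraries 10.6, 11.3 and 13.4 CPM. All 3 YAP5SA libraries lay below the empty vector in A431 cells and above it in HaCaT cells. The HaCaT change of 1.44 (SE 0.30) was called (edgeR FDR = 0.0108) and the A431 change of -0.45 (SE 0.26) was not (edgeR FDR = 0.808). The difference of -1.90 (SE 0.39, A431 minus HaCaT) missed the threshold (edgeR FDR = 0.0549). In that comparison edgeR called 0 of the 9 genes, beside 0.0886% of all genes, while 2 of 9 and 3280 of 14673 genes had an unadjusted p under 0.05. DESeq2 called 1, VGLL1, beside 6.33% of all genes. Without A431 YAP5SA replicate 1, HaCaT YAP5SA replicate 1 or HaCaT YAP5SA replicate 2 edgeR called the VGLL1 difference (FDR = 0.0171, 0.0293 and 0.0342). In these settings 5.94%, 4.16% and 3.39% of all genes were called.

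The HaCaT values of VGLL1 rest on controls that were far apart, the empty vector standing at -3.52 against siCTRL on the log2 scale. All 6 treated HaCaT libraries lay between those controls. With both controls pooled the siYAP change in HaCaT cells was -0.80 (edgeR FDR = 0.333) and the YAP5SA change turned to -1.19 (edgeR FDR = 0.194). In A431 cells all 6 treated libraries lay below both controls, and the pooled siYAP change was -1.12 (edgeR FDR = 0.405). The summed level of 3 endothelial markers was also lower with siYAP than with siCTRL in both lines. It was 33.8 CPM with siCTRL, 18.3 to 21.9 CPM with siYAP and 5.92 CPM with the empty vector and 3.88 to 4.56 CPM with YAP5SA in A431 cells. In HaCaT cells it was 59.2 CPM, 15.97 to 19.6 CPM, 2.10 CPM and 1.19 to 2.39 CPM. Unlike VGLL1, the sum lay lower with the empty vector than with siYAP in A431 cells, and the HaCaT empty vector value fell within the YAP5SA range. CDH5 carried most of the fall with siYAP. It went from 31.1 to between 15.8 and 18.9 CPM in A431 and from 51.8 to between 12.1 and 13.7 CPM in HaCaT cells. VWF also fell in HaCaT cells, from 7.10 to between 3.64 and 5.92 CPM. In A431 cells VWF lay on either side of siCTRL (0.99, 1.62 and 2.20 against 1.32 CPM). PECAM1 was slightly higher with siYAP in A431 cells (1.45 to 1.60 against 1.42 CPM) and reached at most 0.39 CPM in HaCaT cells. The part of these transcripts in the VGLL1 result was not tested. In bulk RNA, fewer cells of a type and less RNA per cell cannot be told apart.

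The bases CATTCC are the core of the motif that TEAD proteins bind. They were searched on both strands, as CATTCC or GGAATG, in the 250 bases before the annotated RefSeq starts (GRCh38.p14). Of the 9 genes 7 had a promoter in that table, 13 promoters in all, while TEAD1 and TEAD4 had none and were not searched. The letters stood in 2 of the 13, a share near the 11.9% of all 35116 promoters. Both matches, in YAP1 and VGLL1, are shown with windows of 30 bases around them. The YAP1 window is chr11:102110273-102110302 and the VGLL1 window chrX:136532046-136532075, both on the plus strand and 5′ to 3′, with the matched letters in capitals.
YAP1: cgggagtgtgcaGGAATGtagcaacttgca
VGLL1: taccatgttcctCATTCCtgcaggtgccca
The matches start 162 and 157 bases before the start of YAP1 and VGLL1. A match is a description of these letters, and binding was not measured.

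VGLL3 was the 1 member of the 9 for which the siYAP effect differed between the lines (beside 0.170% of all genes). The A431 siCTRL library held 113 CPM and the siYAP libraries 51.8, 46.4 and 52.2 CPM, a change of -1.17 (SE 0.13, edgeR FDR = 0.000761). The HaCaT siCTRL library held 83.0 CPM and the siYAP libraries 106, 102 and 123 CPM, a change of 0.41 (SE 0.15) that was not called (edgeR FDR = 0.126). Every siYAP library lay below siCTRL in A431 cells and above it in HaCaT cells, and the difference of -1.58 (SE 0.20, A431 minus HaCaT) was called (edgeR FDR = 0.0157). The mean over both lines, -0.38 (SE 0.10, edgeR FDR = 0.0236), therefore stands for opposite changes, and its call was lost without HaCaT siYAP replicate 1 (0.0518).

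The A431 siCTRL library was the only A431 library above 58.5 CPM for VGLL3. The empty vector library had 58.5 CPM there and the YAP5SA libraries 56.3, 52.2 and 55.5 CPM. In HaCaT cells the empty vector had 38.5 CPM and the YAP5SA libraries 46.5, 40.2 and 40.8 CPM. YAP5SA changes were -0.10 (SE 0.14, edgeR FDR = 0.899) and 0.14 (SE 0.14, edgeR FDR = 0.526). With both controls pooled, the siYAP change was -0.77 in A431 cells (edgeR FDR = 0.192) and 0.86 in HaCaT cells (edgeR FDR = 0.0473), and the difference between the lines was -1.63 (edgeR FDR = 0.114).

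VGLL4, which competes with YAP for TEAD, was called in neither arm against its own control, the changes lying between -0.29 and 0.22. With siCTRL and empty vector pooled as 2 controls it was called lower with YAP5SA in HaCaT cells (-1.58, edgeR FDR = 0.0212). In A431 cells siCTRL gave 34.0 CPM and siYAP 36.4 to 38.6 CPM, and in HaCaT cells siCTRL gave 53.5 CPM and siYAP 53.3 to 56.7 CPM. With the vectors it had 20.3 CPM with empty vector and 21.5 to 25.2 CPM with YAP5SA in A431 cells, and 13.8 CPM with empty vector and 13.8, 7.91 and 11.9 CPM with YAP5SA in HaCaT cells. All vector libraries of a line lay below all siRNA libraries of that line. So did the sums of the fibroblast markers, at 0.66 to 1.79 CPM in HaCaT vector libraries and 21.5 to 27.9 CPM in HaCaT siRNA libraries, and their part in the difference was not tested.

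The siRNA and vector arms could be compared with 3 libraries on each side as YAP5SA against siYAP. In A431 cells 2 of the 9 genes were called, YAP1 higher and VGLL4 lower (-0.67, SE 0.16, edgeR FDR = 0.00557), beside 34.6% of all genes. In HaCaT cells 8 of the 9 were called, beside 60.0% of all genes, YAP1, TEAD1, TEAD2 and TEAD4 higher and WWTR1, TEAD3, VGLL3 and VGLL4 lower. TEAD4 differed by 2.35 (SE 0.16, edgeR FDR = 5.2e-08), VGLL3 by -1.37 (SE 0.10, edgeR FDR = 1.0e-07) and VGLL4 by -2.29 (SE 0.17, edgeR FDR = 8.6e-08). The WWTR1 difference (-0.35, SE 0.11, edgeR FDR = 0.0132) was lost without HaCaT siYAP replicate 3 (0.0695) or HaCaT YAP5SA replicate 2 (0.0542), and VGLL1 (-0.38) was called without HaCaT siYAP replicate 2 (-0.52, edgeR FDR = 0.0322). In A431 cells TEAD1 (0.30) was called without siYAP replicate 1 (0.39, edgeR FDR = 0.0441) or YAP5SA replicate 1 (0.42, edgeR FDR = 0.00592).

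The single controls of the same arms showed part of these differences without any manipulation of YAP1. In HaCaT cells the empty vector library stood at -1.96 against siCTRL for VGLL4, -1.11 for VGLL3, -1.37 for TEAD3 and 0.93 for TEAD2 on the log2 scale. For TEAD4 the controls differed by 0.56, and for TEAD1 by -0.53, the sign opposite to that of YAP5SA against siYAP. With each arm first set against its own control, an alternative chosen after seeing the data, 4 genes were called in HaCaT cells, all higher, beside 4.65% of all genes. They were YAP1, TEAD1 (1.29, SE 0.24, edgeR FDR = 0.00777), TEAD4 (1.79, SE 0.31, edgeR FDR = 0.00547) and VGLL1 (3.13, SE 0.39, edgeR FDR = 0.000935). The VGLL1 value came from the gap of -3.52 between the 2 single controls. YAP5SA against siYAP was -0.38 for VGLL1 and was not called. VGLL4 was then at -0.33 (edgeR FDR = 0.542), VGLL3 at -0.27 (0.424) and TEAD3 at 0.58 (0.248). In A431 cells the same contrast called YAP1 and VGLL3 (1.07, SE 0.20, edgeR FDR = 0.0299), both higher, beside 1.17% of all genes. Most of the VGLL3 value came from the controls, which differed by -0.94, while YAP5SA against siYAP was 0.13 and was not called.

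**Figure D3:**
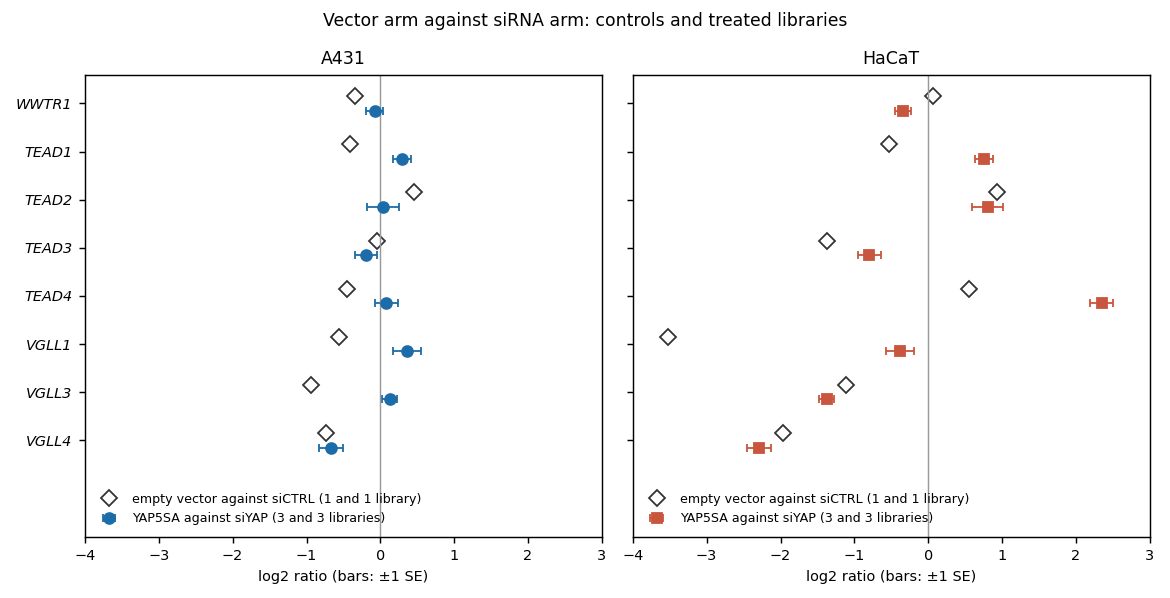
Log2 ratio of the vector arm to the siRNA arm for 8 genes in A431 (left) and HaCaT cells (right). Open diamonds are empty vector against siCTRL, 1 library each and without error, and filled symbols are YAP5SA against siYAP with 1 standard error. In HaCaT cells the diamonds and symbols of VGLL3 and VGLL4 lie near each other (-1.11 and -1.37, -1.96 and -2.29), whereas those of TEAD4 (0.56 and 2.35) and VGLL1 (-3.52 and -0.38) lie apart.

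Between the lines, averaged over the 4 treatments, 3 of the 9 genes were called, beside 60.6% of all genes. YAP1 was lower in A431 than in HaCaT cells (-1.88, SE 0.26, edgeR FDR = 2.3e-05) and was lower in each treatment group. WWTR1 was higher in A431 cells (0.73, SE 0.08, edgeR FDR = 2.2e-06). Its 8 A431 libraries lay between 138 and 174 CPM and its 8 HaCaT libraries between 78.2 and 127 CPM, without overlap. The share of all genes without overlap between the lines was not computed. TEAD3 was lower in A431 cells (-0.26, SE 0.11, edgeR FDR = 0.0497), and with the replicate number as a block this call was lost (-0.26, edgeR FDR = 0.0503). Without the A431 siCTRL library TEAD3 was at -0.046 (edgeR FDR = 0.738) and without the HaCaT siCTRL library at -0.083 (edgeR FDR = 0.539). Leaving out a control removes its treatment from the mean over treatments. Without the A431 or the HaCaT empty vector library VGLL1 was called lower in A431 cells (-0.83 in both, edgeR FDR = 0.000152 and 0.000145), and without the A431 or HaCaT siCTRL library VGLL4 was called higher (0.37 and 0.33, edgeR FDR = 0.0151 and 0.025). TEAD1 was called higher in A431 cells (0.20, edgeR FDR = 0.015) without A431 YAP5SA replicate 1. The TEAD3 call was also lost without any of 7 single treated libraries (edgeR FDR up to 0.0817).

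Levels of different genes were compared per kilobase of the longest protein-coding transcript in GENCODE v29, as a description. In the A431 controls WWTR1 stood highest at 27.4 to 34.7 CPM per kb, followed by TEAD1 at 22.2 to 29.5 and YAP1 at 17.5 to 23.0. WWTR1 exceeded TEAD1 in both A431 controls, whereas TEAD1 exceeded YAP1 in 1 of 2. Per coding length that order turned, TEAD1 at 147 to 196 standing above WWTR1 at 115 to 145 CPM per kb in both A431 controls. In the HaCaT controls YAP1 stood highest at 47.1 to 78.4 CPM per kb, above TEAD1 at 16.3 to 23.6 and WWTR1 at 16.2 to 17.0, and the order of the last pair held in 1 of 2 controls. TEAD2 stood lowest in both lines, at 1.73 to 2.37 and 1.43 to 2.73 CPM per kb.

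**Figure D4:**
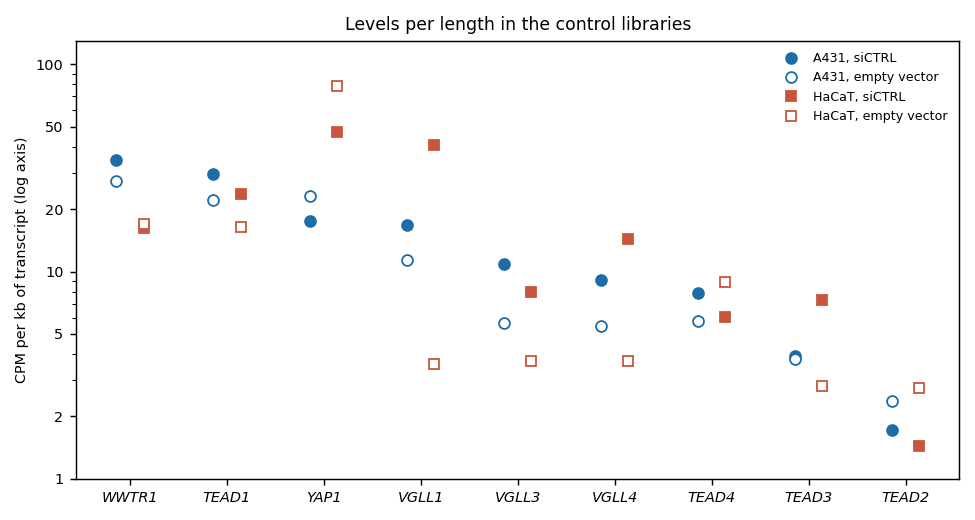
CPM per kilobase of transcript (log axis) of the 9 genes in the 4 control libraries. Filled symbols are siCTRL and open symbols empty vector, circles A431 and squares HaCaT cells. By this length WWTR1 leads in A431 cells (27.4 to 34.7; per coding length TEAD1 leads, at 147 to 196) and YAP1 in HaCaT cells (47.1 to 78.4), and VGLL1 in HaCaT cells spans 3.56 to 40.8.

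The balance of YAP1 and WWTR1 thus differed between the lines and changed with siYAP. Per kilobase, YAP1 made up 33.5% of the YAP1 and WWTR1 sum in the A431 siCTRL library and 74.5% in that of HaCaT, with 45.6% and 82.2% in the empty vector libraries. With siYAP it made up 2.85% to 4.05% in A431 and 13.8% to 16.6% in HaCaT cells. The summed level went from 52.1 CPM per kb with siCTRL to between 31.8 and 32.8 with siYAP in A431 cells, and from 63.3 to between 25.8 and 29.2 in HaCaT cells. WWTR1 was therefore the larger transcript pool in all 6 siYAP libraries.

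Among the TEAD genes TEAD1 made up 56.3% to 68.6% of the TEAD sum per kilobase in A431 libraries and 53.1% to 63.0% in HaCaT libraries. TEAD4 came next in A431 cells at 16.9% to 25.8%, though per coding length it exceeded TEAD3 in 6 of 8 libraries. In HaCaT cells the second place depended on treatment. TEAD4 made up 9.59% to 13.6% with siYAP and 28.3% to 34.0% with YAP5SA, while TEAD3 made up 21.2% to 23.2% with siYAP and 6.01% to 8.86% with YAP5SA. These ranges did not overlap, and the siCTRL library (15.8% TEAD4 and 18.9% TEAD3) lay between them while the empty vector library (28.9% and 9.10%) lay beside those of YAP5SA. Per coding length in place of transcript length TEAD1 made up 83.9% to 89.8% in A431 and 82.6% to 85.3% in HaCaT libraries, since its transcript model is long.

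The genes whose group means over the 8 groups lay closest to those of each member were ranked among 9516 other genes, by the root mean square difference of centred log2 CPM. VGLL4 was closest to DANCR (0.11), JUND (0.16) and SASH1 (0.18). TEAD4 was closest to E2F3 (0.14), LSM10 (0.18) and NOP2 (0.19), and TEAD3 to PACS2 (0.10), MAU2 (0.10) and HUWE1 (0.11). These were near matches beside the spans of 2.33, 2.35 and 1.37 of these members.

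WWTR1 was closest to ZFYVE9 (0.11), NT5DC1 (0.11) and CC2D2A (0.12), TEAD2 to TMEM11 (0.13), NDUFA8 (0.15) and BNC1 (0.15), and VGLL3 to DNM1P41 (0.22), MKL2 (0.23) and PHACTR2 (0.24). VGLL1, with a span of 3.51, had its nearest gene, CCDC120, at 0.47, followed by DENND1C (0.48) and CXCL16 (0.50). For YAP1 the nearest genes, CLSPN, FAM111B and HSD17B2, stood at 2.18, 2.21 and 2.25, which is no close match to a span of 11.02. TEAD1 spanned 0.92, under the minimum of 1 for this ranking.

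Of 22 genes listed as targets of YAP and TEAD, 10 were called higher and 1 lower with YAP5SA over both lines (beside 1.38% and 0.661% of all genes), with a median change of 0.62 beside 0.03 over all genes tested. In A431 cells 0 of the 22 were called with YAP5SA (beside 0.00% of all genes, median 0.26). In HaCaT cells 14 were called higher and 1 lower (beside 6.99% and 6.64%, median 0.998). Over both lines ANKRD1, a muscle ankyrin-repeat protein, rose by 4.39 (SE 0.69, edgeR FDR = 0.0119) and CYR61, a matricellular protein, by 1.94 (SE 0.28, edgeR FDR = 0.00753). The A431 part of the ANKRD1 value rests on 1 count in the empty vector library, against 13 to 34 counts with YAP5SA. TGFB2, a ligand of the TGF-β pathway, rose by 1.16 (SE 0.16, edgeR FDR = 0.00636), and CCDC80, a matrix protein, was the gene that fell (-1.16, SE 0.27, edgeR FDR = 0.0491). With siYAP 3 of the 22 were called lower and 2 higher (beside 7.68% and 5.30% of all genes), with a median of -0.01 beside 0.04 over all genes. In A431 cells the 2 called were both higher (beside 1.81% of all genes), and in HaCaT cells the 3 called were all lower (beside 3.30%). TGFB2 fell by 0.96 (SE 0.15, edgeR FDR = 0.0012) and IGFBP3 by 0.76, whereas NT5E rose by 0.78 and NUAK2 by 0.75. NT5E was higher in both arms, also with YAP5SA (0.91, SE 0.15, edgeR FDR = 0.0159).

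Of 19 Hippo kinases and upstream regulators, 4 were called lower with siYAP over both lines (beside 7.68% of all genes), with a median of -0.10 beside 0.04 over all genes. They were MOB1A (-0.89) and MOB1B (-0.58), activators of the LATS kinases, AMOTL2 (-0.68), which binds YAP, and WWC1 (-0.56), also known as KIBRA. With YAP5SA 3 were called higher (beside 1.38% of all genes), AMOTL2 (0.85), LATS2 (0.67) and WWC1 (0.59), with a median of 0.12 beside 0.03. In A431 cells YAP5SA called 0 of the 19 (beside 0.00% of all genes), and in HaCaT cells 4, all higher (beside 6.99%). With siYAP 1 was called higher and 2 lower in A431 cells (beside 1.81% and 3.78%), and 3 lower in HaCaT cells (beside 3.30%). LATS2 rose with siYAP in A431 cells, from 17.8 to between 25.6 and 31.2 CPM. It fell in HaCaT cells, from 35.6 to between 24.0 and 25.5 CPM. AMOTL2 and LATS2 stand on the target list too.

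Of 21 other partners of YAP, TAZ and TEAD 19 could be tested. With siYAP 4 were called lower (beside 7.68% of all genes), with a median of -0.08 beside 0.04 over all genes. YWHAQ (-1.31), YWHAE (-0.47) and YWHAB (-0.45) encode 14-3-3 proteins, which hold phosphorylated YAP in the cytoplasm, and AJUBA (-0.92) encodes a LIM protein that binds LATS kinases. The YWHAB value is a mean of unlike changes. In A431 cells YWHAB fell from 390 to between 207 and 241 CPM, and in HaCaT cells from 379 to between 341 and 368 CPM. With YAP5SA 1 was called, higher (beside 1.38% of all genes), MED1 (0.44, SE 0.10, edgeR FDR = 0.0499), a Mediator subunit, with a median of 0.05 beside 0.03.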

How the data were processed

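The authors trimmed paired reads, mapped them with RSEM to RefSeq gene models and deposited 1 table of estimated counts per gene, neither scaled nor filtered (17.7% of values are not whole). The submitters' processing notes give RSEM 1.2.11 and hg19, whereas the methods name another RSEM version. Libraries were mapped to groups by their labels, and 0 columns lacked a label. The 9 genes, the gene lists and the tests were chosen with earlier results of these data known.

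The estimates were rounded, and edgeR 4.0.16 was run in R 4.3.3 on the 14673 genes averaging more than 10 counts a library, with TMM factors between 0.914 and 1.07. A single quasi-likelihood model of 8 groups (prior count 0.125, 8 residual degrees of freedom, biological coefficient of variation 0.174) gave all changes, with Benjamini-Hochberg adjustment within each comparison over every gene tested. SE is the log2 fold change over the square root of F. The test was run on simulated counts that gave every gene and library the same spread. The assumption about the spread of the single controls was therefore not checked. Counts of all replicate pairs differed by more than sampling noise. Figures were drawn in Python 3.11.15 with matplotlib 3.10.9 and pandas 2.3.3.

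Named genes were the 9 members, up to 4 called genes per list and arm by size of change over both lines, the 3 nearest patterns of members spanning at least 1 log2 unit (prior count 0.5), and markers. Alternatives were DESeq2 1.42.0, RLE size factors, other filters, FDR alone, each line alone, 2 controls pooled, a replicate block, single libraries left out and coding in place of transcript length. Same-numbered YAP5SA libraries of the lines deviated together (correlations 0.32, 0.15 and 0.12), while no other pair of groups had all 3 above 0.1. Transcript lengths came from GENCODE v29 and promoters from RefSeq (GRCh38.p14), neither being the annotation of the counts.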

Additional observations from a re-analysis of the deposited data

Results flagged for a closer look

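The effect of siYAP on VGLL3 differed between the lines, by -1.58 (A431 minus HaCaT, edgeR quasi-likelihood test, Benjamini-Hochberg FDR = 0.0157), with a change of -1.17 in A431 and 0.41 in HaCaT cells. All 3 siYAP libraries moved down in A431 and all 3 moved up in HaCaT cells, each against 1 siCTRL library. The A431 siCTRL library had 113 CPM and the A431 empty vector library 58.5 CPM, while the 3 A431 siYAP libraries had 46.4 to 52.2 CPM.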

How the results depend on the processing

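Of 1341 values recomputed for single genes, 1204 kept their direction and side of the threshold, 43 fell below it, 30 passed it and 64 reversed, many of them with other controls. The cause was not tested.

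With siCTRL and empty vector pooled as 2 controls, siYAP called 1 gene (YAP1) in A431 cells and 1 over both lines. YAP5SA called 1 in A431 cells. For the difference between lines of the siYAP effect edgeR called 0, with 3 of 9 at an unadjusted p under 0.05. In the same order, the main fit called 821, 1904, 0 and 25 of all 14673 genes. The fit with pooled controls called 198, 2933, 1 and 11. In that setting siYAP values reversed to -0.22 for TEAD2 and 0.0029 for WWTR1 in A431, -0.22 for TEAD2 and 0.42 for TEAD3 in HaCaT, and -0.22 for TEAD2 and 0.045 for VGLL3 over both lines. YAP5SA values reversed to -0.017 for TEAD1, -0.20 for VGLL4 and -0.077 for WWTR1 in A431, to -0.38 for TEAD3, -1.19 for VGLL1 and -0.51 for VGLL3 in HaCaT, and to 0.20 for TEAD2, -0.19 for TEAD3, -0.97 for VGLL1 and -0.58 for VGLL3 over both lines. Differences between the lines reversed to 0.0042 for TEAD2, -0.22 for TEAD3, -0.31 for VGLL1 and -0.24 for VGLL4 with siYAP and to 0.38 for TEAD3 and 0.43 for VGLL1 with YAP5SA. VGLL3 reversed to -0.093 for A431 against HaCaT.

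With each arm set against its own control, 4 genes were called for YAP5SA against siYAP in HaCaT cells, where TEAD2 (-0.13), TEAD3 (0.58) and VGLL1 (3.13) reversed, as did TEAD2 (-0.42), VGLL4 (0.072) and WWTR1 (0.26) in A431 cells. For A431 against HaCaT, 7 genes were called with treated libraries alone, beside 60.9% of all genes, TEAD1 (-0.042) and VGLL3 (-0.39) reversing. With control libraries alone TEAD2 (0.033), TEAD4 (-0.12), VGLL1 (0.19) and VGLL4 (-0.044) reversed.

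With single libraries left out, siYAP called 2 to 4 genes over both lines. YAP5SA called 0 to 1 in A431 cells and 1 to 3 over both lines. For the difference between lines of the YAP5SA effect 0 to 1 were called. Among all 14591 to 14707 genes tested, calls in that order numbered 1299 to 1616, 0 to 87, 48 to 1367 and 1 to 873. With every library kept they numbered 1904, 0, 300 and 13. For A431 against HaCaT, TEAD4 ranged from -0.15 to 0.22, VGLL1 from -0.83 to 0.16, VGLL3 from -0.11 to 0.084 and VGLL4 from -0.039 to 0.37. Values near 0 that reversed were TEAD2 with siYAP in A431 cells (-0.0063 to 0.049), TEAD3 with YAP5SA in A431 cells (-0.072 to 0.11), WWTR1 with YAP5SA in HaCaT cells (-0.018 to 0.20), VGLL3 (-0.013 to 0.042) and VGLL4 (-0.12 to 0.064) with YAP5SA over both lines, TEAD2 for YAP5SA against siYAP in A431 cells (-0.16 to 0.16) and the difference between lines of the YAP5SA effect on WWTR1 (-0.10 to 0.12). With more than 10 counts in every library TEAD3 with YAP5SA and TEAD2 for YAP5SA against siYAP in A431 cells were at -0.015 and -0.0067, and TEAD4 between the lines at -0.020, with -0.016 under both DESeq2 and RLE size factors. The difference of the YAP5SA effect on WWTR1 was 0.021 with no filter and 0.0030 with a replicate block. DESeq2 and no count filter each called 1 gene, YAP1, with YAP5SA in A431 cells, beside 0.0204% and 0.00943% of all genes. DESeq2, RLE size factors and more than 10 counts in every library each called 1, VGLL1, for the difference of the YAP5SA effect. Their shares of all genes were 6.33%, 0.736% and 1.86%.

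A replicate block also called 1 gene with YAP5SA in A431 cells (YAP1, 4.31, edgeR FDR = 0.0296), beside 0.00682% of all genes. The block lost TEAD4 with siYAP in HaCaT cells (-0.82, edgeR FDR = 0.0613) and TEAD3 between the lines, and it changed no other call. Outside the YAP5SA libraries the replicate numbers were not seen to pair the samples. Per coding length TEAD1 made up a median 87.2% and 84.4% of the TEAD sum in A431 and HaCaT cells, in place of 63.6% and 57.4%, and VGLL3 57.5% and 58.8% of the VGLL sum, in place of 24.7% and 26.1%.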
